A study of Mus musculus with 4 samples.

Results

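The FGF system of rib chondrocytes was followed through 9 genes, the receptors Fgfr1, Fgfr2, Fgfr3, Fgfr4 and Fgfrl1 and the ligands Fgf1, Fgf2, Fgf7 and Fgf18. They were taken as the entries with these gene symbols and are 9 of the 17575 genes listed in at least 1 library. Chondrocytes, the cells that build cartilage matrix, had been released from rib cartilage of C57/Bl6 mice aged 10 days by collagenase digestion, filtered and plated before RNA was extracted for RNA-seq. The knockout group, 2 libraries, came from mice with Col2Cre(Tg) together with Kdm6a(fl/fl) and with Kdm6b(fl/fl), in which a Cre recombinase under Col2 control, active in cartilage, acts on floxed alleles of these 2 genes. The wild type group, 2 libraries, shares strain, age and tissue, and the labels name no transgene or floxed allele for it. Their products take the repressive methyl mark off lysine residues of histone H3. Triplicates are named in the series description, while 2 libraries per group were analysed here, and nothing in the labels says whether these came from separate animals. The p-values therefore measure the spread between these libraries, which may be technical.

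FGF ligands bind receptor tyrosine kinases at the cell surface together with heparan sulfate chains, and the active receptors signal through docking proteins, the RAS and MAP kinase cascade, phospholipase C and STAT factors. In the growth plate Fgfr3 restrains the proliferation and maturation of chondrocytes, and activating mutations of the human gene cause achondroplasia. Sprouty proteins and MAP kinase phosphatases are made in response to the signal and dampen it.

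The libraries held 32332044 and 32230980 estimated counts in knockout and 31616619 and 31178248 in wild type. The targeted transcripts were lower in the knockout libraries. Kdm6a had 28.6 and 31.4 CPM (counts scaled by library size with TMM factors) in knockout against 52.6 and 56.9 CPM in wild type, and Kdm6b had 51.4 and 46.2 CPM in knockout against 131 and 118 CPM in wild type. The cells carried their labelled identity, since 8 chondrocyte markers including Col2a1 and Acan summed to 55250 to 57492 CPM in knockout and 39640 to 41023 CPM in wild type, and none was at 0. Summed markers of other cell types were far lower. Those of fibroblasts and perichondrium came to 661 to 912 CPM in knockout and 1060 to 1506 CPM in wild type, and those of endothelium to 68.6 to 81.1 CPM in knockout and 104 to 112 CPM in wild type. Those of smooth muscle and pericytes came to 217 to 218 CPM in knockout and 86.7 to 102 CPM in wild type, and those of epithelium, where the other Fgfr2 splice form and Fgfr4 are made, to 7.32 to 7.89 CPM in knockout and 9.80 to 10.4 CPM in wild type. By the test described next, 4 of 8 chondrocyte markers rose and 1 fell, 2 of 8 fibroblast and 3 of 7 endothelial markers fell, 2 of 6 smooth muscle markers rose, and 0 of 4 epithelial markers passed. By that test, 3.62% of all tested genes were called higher and 5.63% lower. A few genes carried the larger sums. Col2a1 alone had 37111 and 36603 CPM in knockout against 26008 and 24370 CPM in wild type, while Comp, a cartilage matrix protein, fell, at 124 and 138 CPM in knockout against 489 and 450 CPM in wild type. Among the fibroblast markers, Col1a2 and Dcn fell, and Lum, Dpt and Postn did not pass, with log2 fold changes of 0.35, 0.30 and 0.12. Osteoblast markers summed to 4.09 to 5.80 CPM in knockout and 8.32 to 9.22 CPM in wild type, with 1 of 6 lower. Macrophage markers summed to 31.9 to 32.3 CPM in knockout and 46.8 to 49.9 CPM in wild type, with 1 of 6 tested lower. Skeletal muscle markers set the knockout libraries apart from each other, at 6.53 CPM in the first and 25.1 CPM in the second, against 9.61 to 10.2 CPM in wild type. In bulk RNA, fewer cells of a type and less RNA per cell cannot be told apart.

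Fgfr2, Fgfr3 and Fgfrl1 rose in knockout chondrocytes and the ligand Fgf2 fell, while Fgfr1, Fgfr4, Fgf1, Fgf7 and Fgf18 did not pass the test. The test was edgeR's quasi-likelihood F test over 13773 genes, with a gene called changed at a Benjamini-Hochberg adjusted p under 0.05. All 9 genes passed the filter on low counts, 3 were called higher and 1 lower. Among all tested genes, 3.62% were called higher and 5.63% lower, 9.25% in either direction. As a group the 9 genes had a median log2 fold change, knockout minus wild type, of -0.12, against 0.0044 over all tested genes, whose 10th and 90th percentiles were -0.57 and 0.43. The knockout and wild type libraries did not overlap in CPM for 7 of the 9 genes, 3 higher and 4 lower in knockout, against 61.7% over all tested genes (30.9% higher and 30.7% lower). Separation of the groups was thus common in these data.

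The calls leaned on both wild type libraries. Without the first wild type library, edgeR called 0% of all tested genes and 0 of the 9, whose 4 changed genes had edgeR adjusted p-values of 0.0992 for Fgfr3 to 0.159 for Fgf2. There 24.4% of all tested genes had an unadjusted p under 0.05, and so did 4 of the 9. Without the second wild type library, the edgeR adjusted p-values ran from 0.159 for Fgfr3 to 0.210 for Fgf2, 18.3% of all tested genes had an unadjusted p under 0.05, and so did 4 of the 9. DESeq2 called the same 4 genes with all libraries, where it called 12.6% of all genes it tested. Fgfr2, Fgfr3 and Fgfrl1 were also called by DESeq2 with any 1 library left out, where it called 4.77% and 6.54% of genes without the first and second knockout library, and 4.95% and 3.7% without the first and second wild type library. Without the first and second knockout library, edgeR called 7.71% and 9.04% of genes.

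**Figure D1:**
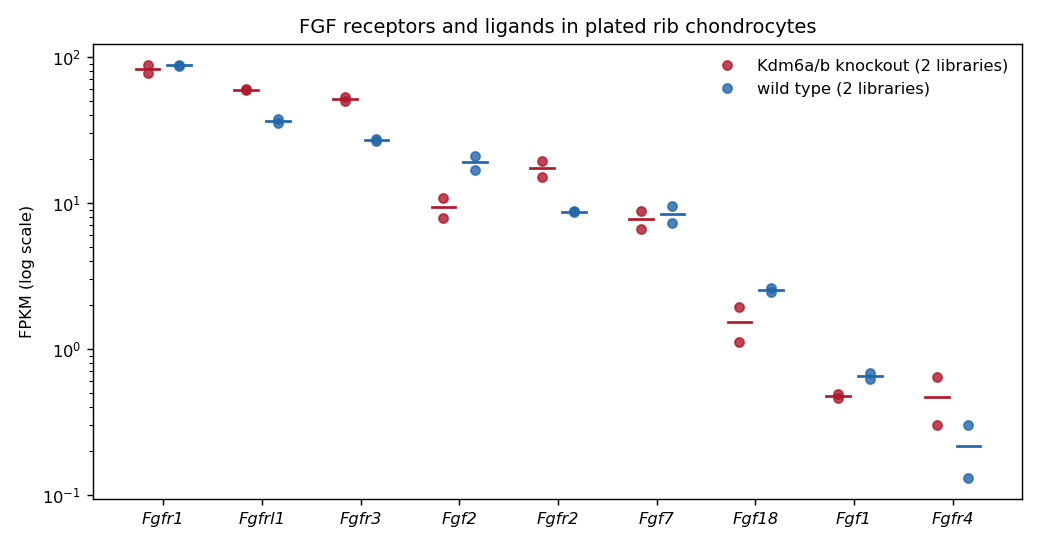
FPKM (fragments scaled by transcript length and sequencing depth, log axis) of the 5 receptor and 4 ligand genes in each of the 2 knockout and 2 wild type libraries, 1 point per library and a line at each group mean. Fgfr3 stood at 50.1 and 53.4 FPKM in knockout against 27.5 and 26.5 FPKM in wild type, and Fgf2 at 10.9 and 7.84 FPKM in knockout against 21.0 and 16.9 FPKM in wild type.

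Fgfr1 (gene 14182, chromosome 8), a receptor of mesenchymal cells and of hypertrophic chondrocytes, was the most abundant of the 9 genes per length in all 4 libraries. It measured 77.2 and 87.7 FPKM in knockout against 88.4 and 86.5 FPKM in wild type. The groups overlapped on this scale, since the second knockout library lay between the wild type libraries, whereas in CPM both knockout libraries, at 372 and 425, lay below both wild type libraries, at 434 and 435. Fgfr1 did not pass the test (log2 fold change -0.12, SE 0.087, edgeR adjusted p = 0.379).

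Fgfr3 (gene 14184, chromosome 5), the receptor that restrains growth plate chondrocytes, rose in knockout. The files listed 50.1 and 53.4 FPKM in knockout against 27.5 and 26.5 FPKM in wild type, on 6625 and 7025 estimated counts in knockout against 3521 and 3374 in wild type. Replicates of each group lay close together and the groups were far apart. This was a 1.88-fold rise (log2 fold change 0.91, SE 0.073, edgeR adjusted p = 0.00242).

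Fgfr2 (gene 14183, chromosome 7), which is known for its part in osteoprogenitor cells and, as a separate splice form, in epithelia, rose by a similar factor. It had 15.1 and 19.4 FPKM in knockout against 8.76 and 8.66 FPKM in wild type. Both knockout libraries lay above both wild type libraries, but the knockout pair was spread more widely than the wild type pair. Fgfr2 thus rose 1.92-fold (log2 fold change 0.94, SE 0.125, edgeR adjusted p = 0.0109). The counts are per gene and do not separate the mesenchymal and epithelial splice forms.

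Fgfrl1 (gene 116701, chromosome 5), a receptor-like protein that binds FGF ligands and lacks the tyrosine kinase domain, rose as well. Its values were 59.9 and 58.9 FPKM in knockout against 37.4 and 35.5 FPKM in wild type. The groups did not overlap, and within each group the libraries nearly coincided. The rise was 1.57-fold (log2 fold change 0.65, SE 0.070, edgeR adjusted p = 0.00600).

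Fgfr4 (gene 14186, chromosome 13), best known as the liver receptor for bile acid control by FGF signals, was near the limit of detection. It had 31 and 65 counts in knockout and 13 and 30 in wild type, or 0.30 and 0.64 FPKM in knockout against 0.13 and 0.30 FPKM in wild type. The lower knockout library coincided with the higher wild type library in FPKM. The log2 fold change of 1.07 had an SE of 0.537 and did not pass (edgeR adjusted p = 0.237).

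**Figure D2:**
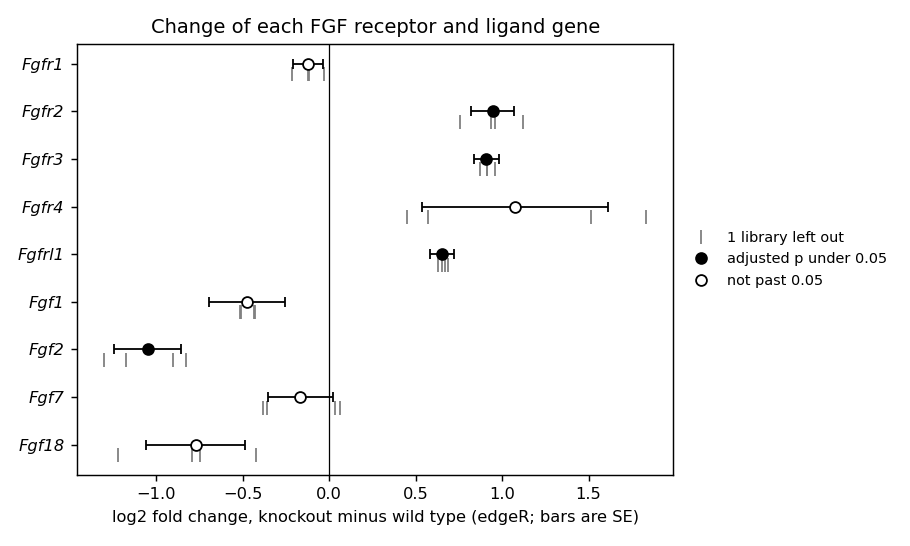
Log2 fold change, knockout minus wild type, of the 9 genes by edgeR, with bars of 1 SE. Fgfr2, Fgfr3 and Fgfrl1 lay at 0.94, 0.91 and 0.65 and Fgf2 at -1.05, and these 4 passed an adjusted p of 0.05.

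The makeup of the receptor pool differed between the groups. Fgfr1 supplied 54.1% and 54.4% of the summed FPKM of the 4 kinase receptors in the knockout libraries, against 70.9% in each wild type library. Fgfr3 supplied 35.1% and 33.2% in knockout against 22% and 21.7% in wild type. Both receptors held nearly the same share in the replicates of a group, and the groups were well apart. Fgfr2 supplied 10.6% and 12% in knockout against 7.02% and 7.10% in wild type, and Fgfr4 stayed under 0.4% in every library. In means ± SD over 2 libraries, Fgfr1 held 54.3 ± 0.23% in knockout and 70.9 ± 0.026% in wild type, and Fgfr3 held 34.1 ± 1.40% in knockout and 21.9 ± 0.18% in wild type. The sum itself was 143 and 161 FPKM in knockout against 125 and 122 FPKM in wild type. An exact two-sided permutation test of 2 libraries against 2 cannot give a p below 0.333, so these shares were not tested. They are percentages of a whole, and a larger share of 1 receptor lowers the shares of the others.

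**Figure D3:**
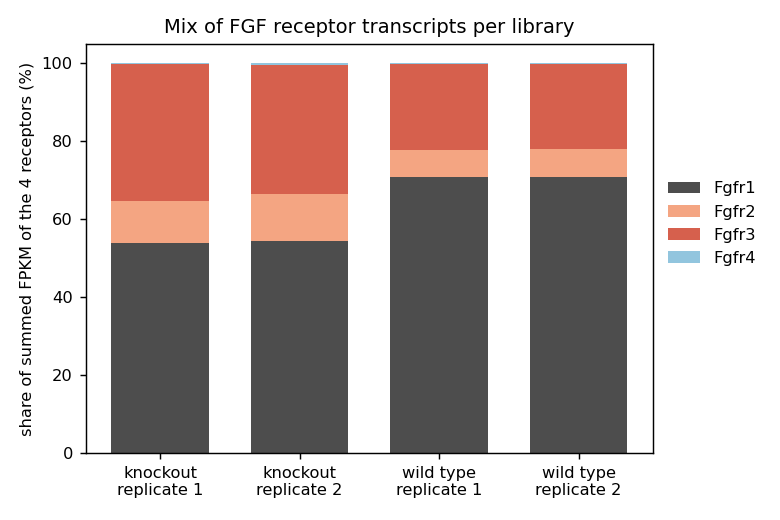
Share of each receptor (percent of the summed FPKM of Fgfr1, Fgfr2, Fgfr3 and Fgfr4) in each library, knockout libraries left of the wild type libraries. Fgfr3 made up 35.1% and 33.2% of the sum in knockout and 22% and 21.7% in wild type.

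Between Fgfr2 and Fgfr3 the proportion overlapped between the groups. The ratio of Fgfr3 to Fgfr2 in FPKM was 3.32 and 2.75 in knockout and 3.13 and 3.06 in wild type, with the wild type values inside the knockout range. The ratio of Fgfr3 to Fgfr1, by contrast, was 0.650 and 0.609 in knockout against 0.310 and 0.307 in wild type. That of Fgfrl1 to Fgfr3 was 1.20 and 1.10 in knockout against 1.36 and 1.34 in wild type. These ratios are values without a test.

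Fgf2 (gene 14173, chromosome 3), a ligand stored on heparan sulfate in cartilage matrix that binds several FGF receptors, fell in knockout. It had 10.9 and 7.84 FPKM in knockout against 21.0 and 16.9 FPKM in wild type, on 235 and 169 counts in knockout and 443 and 352 in wild type. The groups did not overlap, although the replicates of each group were further apart than those of Fgfr3. Fgf2 fell 2.07-fold (log2 fold change -1.05, SE 0.192, edgeR adjusted p = 0.0247). The call was lost when genes with low counts were not filtered out (edgeR adjusted p = 0.0533), and with DESeq2 when the second knockout library (DESeq2 adjusted p = 0.0817) or the first wild type library (DESeq2 adjusted p = 0.212) was left out. Fgf2 is read here with a limit on identity. In GENCODE M21 it shares 640 exonic bases with Nudt6 on the other strand and 255 with Gm43439 on the same strand. Whether these bases lie in the counted Fgf2 entry was not tested. Neither the labels nor the file headers say whether counting used strand, and reads from the shared bases cannot be told apart. Nudt6 had 14 and 10.5 CPM in knockout against 19.1 and 17.6 CPM in wild type, and its log2 fold change of -0.59 did not pass (SE 0.158, edgeR adjusted p = 0.0685). In the authors' deposited table, Nudt6 had a log2 fold change of -0.56 and an adjusted p of 0.0416, in the direction of Fgf2. The Fgf2 entry is also short, with a length of 695 bases in the files against 5973 bases for the longest GENCODE transcript. Its FPKM is scaled to that short length, and this affects its rank among the other genes but not its fold change.

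Fgf18 (gene 14172, chromosome 11), a ligand made by perichondrium that acts on growth plate chondrocytes through Fgfr3, had 1.11 and 1.94 FPKM in knockout against 2.62 and 2.47 FPKM in wild type. Both knockout libraries lay below both wild type libraries, and the knockout libraries differed from each other by more than the wild type ones. The log2 fold change was -0.77 (SE 0.286, edgeR adjusted p = 0.136) and did not pass. Without the second knockout library it passed, with a log2 fold change of -1.22 (edgeR adjusted p = 0.0247), but not with DESeq2 (DESeq2 adjusted p = 0.167).

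Fgf1 (gene 14164, chromosome 18), which binds all FGF receptors, was weakly expressed at 0.46 and 0.49 FPKM in knockout against 0.68 and 0.62 FPKM in wild type. The knockout libraries both lay below the wild type libraries. The log2 fold change was -0.48 (SE 0.220, edgeR adjusted p = 0.206) on 59 and 62 counts in knockout and 84 and 76 in wild type, and did not pass.

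Fgf7 (gene 14178, chromosome 2), a mesenchymal ligand for the epithelial splice form of Fgfr2, had 6.58 and 8.82 FPKM in knockout against 7.31 and 9.53 FPKM in wild type. The groups overlapped, and the replicates of each group differed more than the groups did. The log2 fold change was -0.17 (SE 0.188, edgeR adjusted p = 0.589), and its sign changed when the first knockout or the second wild type library was left out.

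Per length, the order in knockout was Fgfr1, Fgfrl1, Fgfr3, Fgfr2, Fgf2, Fgf7, Fgf18, Fgf1 and Fgfr4, and neighbours overlapped only between Fgf2 and Fgf7 and between Fgf1 and Fgfr4. In wild type, Fgf2 stood above Fgfr2, and the only overlapping neighbours were Fgfr2 and Fgf7. The place of Fgf2 rests on its short listed length. In CPM, which is not scaled by length, Fgf2 had 14.01 and 11.6 in wild type, below Fgfr2 at 45.5 and 46.3 and Fgf7 at 19.5 and 26.2. Fgfr1, Fgfrl1 and Fgfr3 headed the order in both groups, and Fgf2 and Fgf7 had the highest FPKM of the 4 ligands.

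The start regions of these genes differed in base composition. The windows below are the bases just upstream of starts in the RefSeq promoter table for GRCm38.p6. Windows were used for 7 of the 9 genes, 8 windows of 250 bases. Fgfr1 had no entry in the table, and Fgf1 was left out of this step by choice. The printed windows show 2 receptors that rose, Fgfr3 and Fgfrl1, and Fgf7, which overlapped between groups. Capitals mark the GC box, which reads GGGCGG or, on the opposite strand, is printed as CCGCCC; Sp1 family factors recognise it. The Fgfr3 window is given up to the first exonic base.
Fgfr3, chr5:33721474-33721673, plus strand: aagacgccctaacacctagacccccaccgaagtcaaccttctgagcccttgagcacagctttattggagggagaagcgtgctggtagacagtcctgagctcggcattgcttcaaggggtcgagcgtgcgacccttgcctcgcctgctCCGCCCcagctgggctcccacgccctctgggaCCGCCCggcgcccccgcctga
Fgfrl1, chr5:108693979-108694228, plus strand: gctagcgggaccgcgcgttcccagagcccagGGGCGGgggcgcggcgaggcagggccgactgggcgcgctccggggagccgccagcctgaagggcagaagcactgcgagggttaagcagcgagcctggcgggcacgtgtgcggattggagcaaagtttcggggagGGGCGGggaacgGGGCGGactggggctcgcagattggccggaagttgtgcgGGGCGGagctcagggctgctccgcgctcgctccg
Fgf7, chr2:126034408-126034657, plus strand: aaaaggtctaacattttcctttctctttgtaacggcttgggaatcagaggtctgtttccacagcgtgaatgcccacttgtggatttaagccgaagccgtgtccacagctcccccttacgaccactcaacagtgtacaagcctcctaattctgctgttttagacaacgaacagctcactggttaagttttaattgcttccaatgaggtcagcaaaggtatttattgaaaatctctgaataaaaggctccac
The Fgfr3 stretch, 200 bases long, held 14 CpG dinucleotides and 2 GC boxes, and its full window of 250 bases held 19 CpG and 3 GC boxes. A further listed start of Fgfr3 had 24 CpG and 2 GC boxes. The Fgfrl1 window held 30 CpG and 4 GC boxes, and that of Fgf7 held 6 CpG and no GC box. The listed Fgfrl1 start lies 1 base from a GENCODE start and 1847 bases downstream of the first GENCODE start. Over all 32851 promoters of the table the median was 6 CpG per 250 bases, with quartiles of 2 and 16, and 32.7% held a GC box. Among the 7 genes with a window, CpG counts did not follow the direction of change. The window of Fgf2, which fell, held 20 CpG and 1 GC box, although all of its 250 bases lie in exons annotated for Fgf2 in GENCODE M21, and that of Fgf18, which did not pass, held 37 CpG and 1 GC box. The window of Fgfr2, which rose, held 2 CpG and no GC box. However, its listed start lies 545 bases from the nearest GENCODE start and 2856542 bases downstream of the first. Other motifs were searched on both strands. They were TATAAA for the TATA box (held by 12.4% of all promoters), AACAAT for SOX factors (9.42%), TGANTCA for AP-1 (6.75%) and CCGGAAG for ETS factors (6.91%). The only match in the 8 windows was 1 ETS motif in Fgfrl1.

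Exons of other genes touched some of the receptors in GENCODE M21. Fgfr3 shares 998 exonic bases with G630022F23Rik and Fgfr1 shares 164 with Gm16159, both on the other strand, and Fgfr2 shares 314 with Ctbp2 on the same strand. As for Fgf2, whether these bases lie in the counted entries was not tested, and reads from any that do cannot be told apart. The counted Fgfr2 entry had a length of 5136 to 5167 bases, against 10328 exonic bases in GENCODE M21. No entry named G630022F23Rik, Gm16159 or Gm43439 was found among the listed genes, so they have no values here. Ctbp2 had 71.1 and 72.9 CPM in knockout against 73.0 and 66.7 CPM in wild type and did not pass (edgeR adjusted p = 0.734).

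Of 18 other genes of the FGF family, 4 had enough counts to be tested and 1 rose, which does not encode a classical ligand. Fgf13 encodes an intracellular FGF homologous factor that binds sodium channels and is not secreted like the classical ligands. It had 1.68 and 2.36 CPM in knockout against 0.443 and 0.757 CPM in wild type, and both knockout libraries lay above both wild type libraries (log2 fold change 1.75, SE 0.374, edgeR adjusted p = 0.0383). Over the 4 tested genes the median was 0.0078. Among all tested genes, 3.62% were called higher and 5.63% lower. Fgf9, Fgf10 and the other untested genes of this list that had an entry stayed below 0.5 CPM, so levels of these transcripts were not resolved.

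The share of heparan sulfate carriers and co-receptors called lower was near that of all genes. Of 18 tested genes of that list, which includes the syndecans, glypicans and Hspg2, 0 were called higher and 1 lower, with a median log2 fold change of -0.16, against 3.62% higher and 5.63% lower over all tested genes. The gene that fell was Flrt3, a transmembrane protein that associates with FGF receptors, at 23.6 and 19.98 CPM in knockout against 51.9 and 50.6 CPM in wild type (log2 fold change -1.23, SE 0.10, edgeR adjusted p = 0.00251). Hspg2 encodes perlecan, the main heparan sulfate proteoglycan of cartilage matrix. It had 2064 and 2354 CPM in knockout against 2200 and 2340 CPM in wild type, and its groups overlapped. Of 18 tested genes that build or edit heparan sulfate, 0 were called higher and 1 lower, with a median of -0.017, again near those shares. Hs3st1, a sulfotransferase, fell, at 3.48 and 3.38 CPM in knockout against 6.93 and 5.99 CPM in wild type (log2 fold change -0.91, SE 0.166, edgeR adjusted p = 0.0243).

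In the relay of the signal inside the cell 1 gene passed. Of 30 adaptors and kinases, from Frs2 and Grb2 to Stat5b, 0 were called higher and 1 lower, against 3.62% and 5.63% of all tested genes, and the median log2 fold change was 0.021. Shc1, an adaptor of receptor tyrosine kinases, had 117 and 115 CPM in knockout against 141 and 147 CPM in wild type (log2 fold change -0.31, SE 0.070, edgeR adjusted p = 0.0431). Frs2, the docking protein that FGF receptors phosphorylate, had 87.9 and 80.8 CPM in knockout and 83.5 and 80.6 CPM in wild type.

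Several feedback inhibitors and target genes of FGF signalling fell in knockout. Of 18 tested genes, 0 rose and 7 fell, with a median log2 fold change of -0.51, against 5.63% of all tested genes called lower. Dusp5, a nuclear MAP kinase phosphatase, fell most of these 7 by fold, at 11.9 and 10.5 CPM in knockout against 39.6 and 35.7 CPM in wild type (log2 fold change -1.75, SE 0.11, edgeR adjusted p = 0.00152). Fosl1, a subunit of AP-1, had 262 and 209 CPM in knockout against 453 and 395 CPM in wild type (log2 fold change -0.85, SE 0.126, edgeR adjusted p = 0.0140). In each of these the groups were clearly apart. The other 5 were Spry2, Spry4, Dusp4, Dusp6 and Ccnd1, with log2 fold changes between -1.13 for Spry2 and -0.53 for Ccnd1 and edgeR adjusted p-values up to 0.0166. Etv5, an ETS factor that is a classical FGF target, had 47.1 and 36.8 CPM in knockout and 43.7 and 40.9 CPM in wild type, with overlapping groups, and Spry1 likewise overlapped. In CPM both knockout libraries lay below both wild type libraries for 13 of the 18 genes and above for 3. Over all tested genes these shares were 30.7% and 30.9%. The 3 were Spry3, Etv1 and Snai1, with log2 fold changes of 1.03, 0.71 and 0.35, and they did not pass. Genes of this list also respond to other receptor tyrosine kinases.

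**Figure D4:**
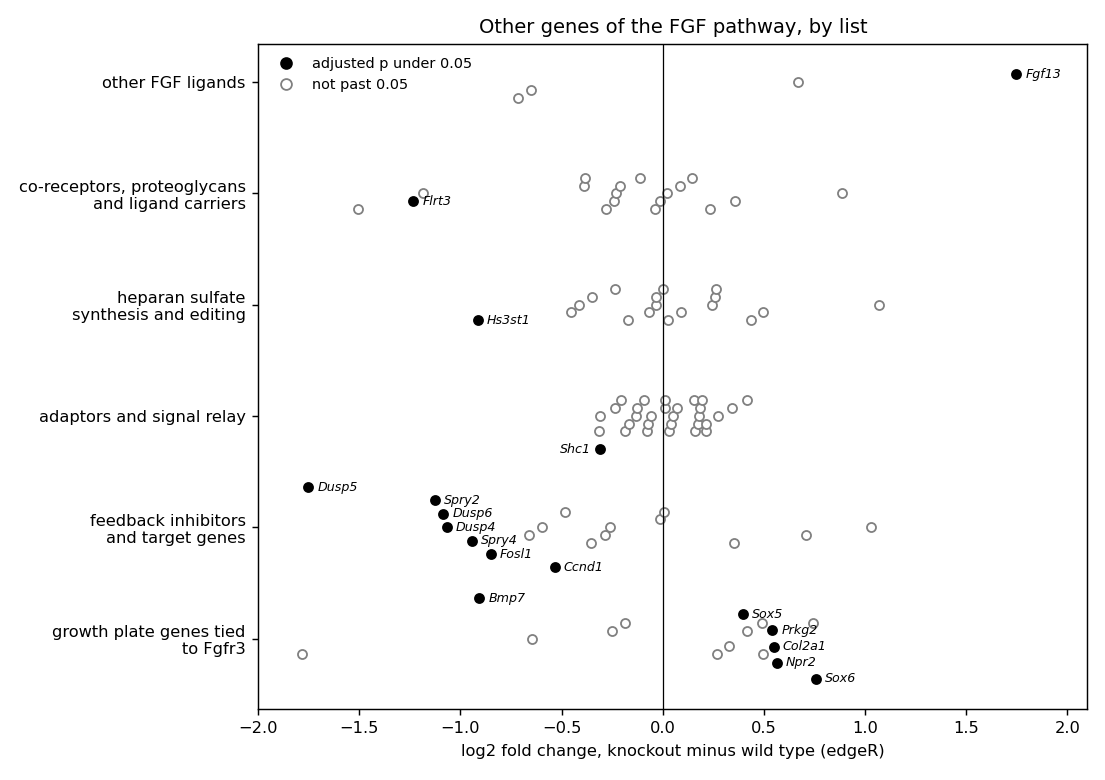
Log2 fold change, knockout minus wild type (edgeR), of the tested genes of 6 lists around the FGF receptors, 1 point per gene, filled where the adjusted p was under 0.05. Of 18 feedback inhibitors and target genes 7 fell and 0 rose, and of 30 adaptors and relay kinases 1 fell and 0 rose.

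Of 16 tested growth plate genes listed as downstream of Fgfr3 or opposed to it, 5 rose and 1 fell. Their median log2 fold change was 0.41, and 3.62% of all tested genes were called higher and 5.63% lower. The list also holds general chondrocyte genes, among them Sox9, Acan and Col2a1, which are chondrocyte markers above as well. Ihh, Pthlh, Ptch1 and Pth1r did not pass, with log2 fold changes of -0.65, -1.79, 0.74 and 0.49, and Ihh and Pthlh stayed below 1 CPM. Those that rose included Npr2, the receptor for C-type natriuretic peptide, whose signal opposes Fgfr3 in chondrocytes, and Prkg2, a kinase activated by the cyclic GMP that Npr2 makes. Npr2 had 61.3 and 63.4 CPM in knockout against 41.7 and 42.7 CPM in wild type (log2 fold change 0.56, SE 0.071, edgeR adjusted p = 0.00948). Prkg2 had 381 and 313 CPM in knockout against 246 and 231 CPM in wild type (log2 fold change 0.54, SE 0.108, edgeR adjusted p = 0.0310). Both lay above wild type in each knockout library. Nppc, the gene of the C-type peptide, had too few counts to be tested. It had 0.122 and 0.338 CPM in knockout against 0.158 and 0.263 CPM in wild type. Npr3 did not pass (log2 fold change -0.25, SE 0.137, edgeR adjusted p = 0.274). Sox6, Sox5 and Col2a1, genes of the chondrocyte programme, rose with log2 fold changes of 0.76, 0.40 and 0.55, while Sox9, their partner factor, was at -0.19 with overlapping groups and did not pass (edgeR adjusted p = 0.377). Bmp7, a bone morphogenetic protein, fell, at 18.5 and 23.2 CPM in knockout against 36.9 and 41.2 CPM in wild type (log2 fold change -0.91, SE 0.128, edgeR adjusted p = 0.0125). Several of the marker lists given above also differed between the groups, and their part in these differences and in those of the 9 genes was not tested.

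The genes with the most similar profiles were found among 9845 tested genes averaging at least 5 CPM, by the Euclidean distance between log2 CPM values centred on each gene's mean over the 4 libraries. The 3 nearest to Fgfr3 were Fignl1, Mex3a and Tagln, at distances of 0.0953, 0.0957 and 0.105. Those nearest to Fgfr2 were Zim1, Epyc and Serpina3n, at 0.0523, 0.0752 and 0.0849. Those nearest to Fgfrl1 were Gstt3, Hcfc1r1 and Idh1, at 0.0193, 0.0433 and 0.0564, and those nearest to Fgf2 were Fhod1, Nxph3 and Zfp52, at 0.117, 0.136 and 0.178. With 4 libraries in 2 groups such profiles mostly carry the group difference.

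The authors' deposited table of the same comparison, made with DESeq2, gave log2 fold changes of 0.90 for Fgfr3, 0.93 for Fgfr2, 0.65 for Fgfrl1 and -0.995 for Fgf2. The adjusted p-values of these 4 genes in the authors' deposited table were all under 0.05, the highest being 0.000412 for Fgf2. The other 5 genes had adjusted p-values from 0.240 for Fgf18 to 0.834 for Fgf7 in the authors' deposited table. That table marks genes as up or down only beyond a size of 1 on the log2 scale, and it marked 0 of the 9.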

How the data were processed

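RNA-seq values of 2 knockout and 2 wild type libraries of plated rib chondrocytes were used, grouped by the sample titles. Bowtie2 2.2.5 and the mouse build mm9 are named in the submitters' processing notes. Which counter, annotation release and strand setting applied was not given in the sources used here. Per the file headers, the authors deposited an expected count and an FPKM value per gene and library. Expected counts need not be whole, and 74.2% to 74.6% were whole within 0.005. The authors also deposited a DESeq2 comparison that gives, per gene, each group's mean signal on a normalized scale, the log2 fold change and its p-value, raw and adjusted. Genes absent from a library's list were set to 0 in it.

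Expected counts, once rounded, went into edgeR 4.0.16 under R 4.3.3 (TMM scaling, filterByExpr, quasi-likelihood F tests, Benjamini-Hochberg adjustment over 13773 genes, threshold 0.05), after the step had been tested on simulated data. The biological coefficient of variation was 10.3%, and depth was 31178248 to 32332044 counts. Each standard error is the size of the log2 fold change divided by the root of F, and CPM is TMM-scaled. The chi-square per gene between replicates was 22.1 in knockout and 20.2 in wild type, beyond counting noise, against 63.6 to 96.0 between groups. Precision is limited by 2 libraries per group. Alternatives were DESeq2 1.42.0, upper-quartile scaling, other filters on low counts, a replicate block, limma 3.58.1 on log2(FPKM + 1) and log2(FPKM + 0.1), and leaving out each library. DESeq2 fits with a library left out were added after the data had been seen.

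17518 gene IDs matched the RefSeq table of GRCm38.p6, used for names and chromosomes. Promoters are in GRCm38.p6 coordinates and exon overlaps are from GENCODE M21, apart from the mm9 values. Promoter windows were searched for exact letters. 26 entries named by transcript, with 0.0271% of counts, were kept as they stand, and 0 of them belonged to the 9 genes.

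Named genes were the 9 genes, Nudt6, Kdm6a and Kdm6b, up to 6 called members of each pathway list by smallest p-value, and the 3 nearest profiles of each called gene. Ctbp2, Dusp6, Hspg2, Frs2, Etv5, Spry1, Sox9, Comp, Col1a2, Dcn, Lum, Dpt, Postn, Fgf9 and Fgf10 were named after their values were seen. So were Ihh, Pthlh, Ptch1, Pth1r, Spry3, Etv1, Snai1, Nppc and Npr3. The 9 genes and the lists were chosen with earlier results of these data known, so counts over a list are descriptions.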

Additional observations from a re-analysis of the deposited data

How the results depend on the processing

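With 2 libraries per group, calls depended on how the spread was estimated. The counts of 3 genes higher and 1 lower among the 9 held with DESeq2, upper-quartile scaling, the CPM filter, limma with a filter and the replicate block. Over all genes, DESeq2 called 1607, upper-quartile scaling 1251, the CPM filter 1311 and the replicate block 2316. Filtered limma called 1026 with log2(FPKM + 1) and 1012 with log2(FPKM + 0.1). With limma on log2(FPKM + 1) without a filter the counts higher and lower among the 9 were both 0, and 0 of all genes were called. The limma adjusted p-values there were 0.0852 for Fgfr2 (log2 fold change 0.90), 0.0613 for Fgfr3 (0.91), 0.0646 for Fgfrl1 (0.69) and 0.108 for Fgf2 (-0.95). Without a filter on low counts edgeR called 720 of all genes, against 1274 in the main fit. There 0 of the 9 genes were lower, with Fgf2 at -1.04. Leaving out a library gave 0 to 3 higher and 0 to 2 lower. Without wild type replicate 1 and, in a separate fit, replicate 2, edgeR called 0 of all tested genes, where 3442 and 2587 had an unadjusted p under 0.05, while DESeq2 called 544 and 417 genes and 3 and 4 of the 9. In leave-one-out fits with edgeR the log2 fold changes ran from 0.76 to 1.12 for Fgfr2, 0.87 to 0.96 for Fgfr3, 0.63 to 0.68 for Fgfrl1, -1.30 to -0.83 for Fgf2 and -1.22 to -0.42 for Fgf18. For Fgf2, DESeq2 gave -0.83 without knockout replicate 2 and -0.90 without wild type replicate 1. Those of Fgf7 ran from -0.39 to 0.06, reversed at 0.033 (DESeq2 0.029) without knockout replicate 1 and at 0.063 (DESeq2 0.061) without wild type replicate 2, and the cause was not tested. The lone library of a reduced group is assumed to vary like the other group. Of 104 tested pathway genes, 6 rose and 11 fell, with 13 rising by DESeq2, 13 with the replicate block, 0 in either direction with unfiltered limma, and 0 to 9 rising and 0 to 15 falling with a library left out (7 falling by DESeq2 without wild type replicate 1). With all libraries, edgeR called 3.62% of all tested genes higher and 5.63% lower, and DESeq2 called 12.6% in either direction. The replicate numbers are shared only as numbers, and deviations of same-numbered libraries correlated at 0.107. Blocking on them called 2316 genes against 1274 and changed no call among the 9, with adjusted p-values of 0.00012 for Fgfr3 and 0.00142 for Fgf2. The share of Fgfr1 differed by -16.2 percentage points in CPM and by -15.7 with Fgfrl1 in the sum, against -16.6 as reported, and with Fgfrl1 in the sum that of Fgfr2 was 2.68 higher and that of Fgfr3 7.63 higher. Fgfr4 and Fgf1 had under 90 counts per library, and the replicates of Fgfr4 differed widely (SE 0.537, or 0.357 with the replicate block).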
